A study of Rattus norvegicus with 6 samples.

Results

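The nuclear-encoded genes of the mitochondrial respiratory chain and ATP synthase were followed in the amygdala of adult male Sprague Dawley rats, an outbred strain, 1 h after an acute dose of ethanol. Genes were chosen by symbol alone: every protein-coding gene whose rat symbol begins with Nduf followed by a, b, c, s or v, is Sdha, Sdhb, Sdhc or Sdhd, begins with Uqcr, begins with Cox and a digit from 4 to 8, or begins with Atp5. Of the 38445 genes counted in the files, 118 fit this rule, and 95 of them had at least 10 reads in at least 3 of the 6 libraries and are called members. The rule uses symbols and read depth only. Control rats received saline and ethanol rats received 1 g/kg by intraperitoneal injection, and RNA of 2 rats was pooled for each library. Each group of 6 rats therefore gave 3 libraries (control 1 to 3 and ethanol 1 to 3), and a p-value here measures the spread between such pools. The tissue was whole amygdala, so less RNA per cell and fewer cells of a type cannot be told apart.

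The respiratory chain is built from proteins of 2 genomes. Complexes I and II pass electrons from NADH and succinate to ubiquinone, complex III hands them on to cytochrome c, and complex IV, cytochrome c oxidase, passes them to oxygen. Complexes I, III and IV pump protons, and complex V, the ATP synthase, lets them back to make ATP. In neurons this route supplies most of the ATP spent on ion pumping, and the nuclear genes of the subunits are classical targets of the transcription factors NRF1 and of the ETS factor GABP, also called NRF2.

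Among the 95 members, 43 belonged to complex I, 4 to complex II, 8 to complex III, 18 to complex IV and 17 to complex V, and 5 were copies of a subunit gene annotated as a single block without introns. Complex I comprised 7 core subunits, 28 accessory subunits and 8 Ndufaf genes, whose proteins help to assemble the complex and are not part of it. Complex IV comprised 11 usual subunits, the supercomplex factor Cox7a2l and 6 alternative isoforms that replace a usual subunit in some tissues or states (Cox4i2, Cox6a2, Cox6b2, Cox7a1, Cox8b and Ndufa4l2). The members lay on 20 chromosomes. They received between 1.02% and 1.14% of the reads assigned to genes in each library, whose totals lay between 62576504 and 70755739. The tissue held the RNA of both main neuron classes: 5 glutamatergic markers summed to between 562.3 and 1040 CPM (read counts relative to the library total, scaled between libraries) and 3 GABA markers to between 635.4 and 849.8 CPM. Ethanol 1 and ethanol 2 stood apart from the other libraries in markers of the choroid plexus, given with the values of Cox8b.

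The DNA around the start of the members was searched for letters of factors known to act on respiratory chain genes. A window of 250 bases before and 50 bases after the start was held for 83 of the 95 members in the RefSeq sequences of build GRCr8. The letters GCGCATGC, a core of NRF1 sites, were present on either strand in 10 of 83 members (12%), against 2.7% of the 27457 genes with a window and 4.4% of the 13250 such genes that were tested here. The ETS letters CCGGAAG were present in 22 members (26.5%), against 9.2% of all genes and 14.9% of those tested, and the YY1 letters AAGATGGC in 16 members (19.3%), against 3.4% and 4.7%. The SP1 letters GGGCGG were present in 39.8% of the members, 34.9% of all genes and 56.7% of those tested. Genes differ in base composition (a median of 56.3% G and C in the windows of members and 59.7% in those of tested genes), and these shares carry no test. At least 1 of the NRF1, ETS and YY1 strings was found in 36 members (43.4%) and in 21.7% of the tested genes. The ETS string ends and the YY1 string begins with AAG, so that a stretch can hold both. The NRF1 letters are shown in capitals in 30 bases each of genes of complex V (Atp5mc2, a c-ring subunit, and Atp5po, a stalk subunit), complex III (Uqcrc1, a core protein) and complex I (Ndufa11, an accessory subunit, where the letters repeat), as examples of the 10 members that hold them. The stretches were chosen for these letters.
Atp5mc2, chr7:135678256-135678285, minus strand: tggctctagtcGCGCATGCGCagagccttc
Atp5po, chr11:44657524-44657553, minus strand: cacgccgacgcGCGCATGCGCtctggcatc
Uqcrc1, chr8:118468173-118468202, plus strand: tactccaccctGCGCATGCgtagcgcggct
Ndufa11, chr9:1637506-1637535, plus strand: acctgcgctgtGCGCATGCGCATGCGCaca

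The 200 bases before the start of Cox8a, Cox8b and Cox6a2 (GRCr8) are shown because the isoforms Cox8b and Cox6a2 turned out to be the members with the smallest p-values. Cox8a encodes the usual form of subunit VIII, Cox8b its form in heart, skeletal muscle and brown fat, and Cox6a2 the heart and skeletal muscle form of subunit VIa. Capitals mark the ETS letters CCGGAAG on either strand in Cox8a, and the TATA-box letters TATAAA, the E-box letters CAGCTG and the MEF2-like letters AAAAATAG in the isoforms. The last 3 strings were chosen after the isoform sequences had been read.
Cox8a, chr1:213833624-213833823, minus strand: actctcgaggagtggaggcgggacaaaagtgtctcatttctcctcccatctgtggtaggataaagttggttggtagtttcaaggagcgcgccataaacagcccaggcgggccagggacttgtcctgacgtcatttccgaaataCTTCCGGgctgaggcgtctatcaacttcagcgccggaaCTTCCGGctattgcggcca
Cox8b, chr1:205408274-205408473, minus strand: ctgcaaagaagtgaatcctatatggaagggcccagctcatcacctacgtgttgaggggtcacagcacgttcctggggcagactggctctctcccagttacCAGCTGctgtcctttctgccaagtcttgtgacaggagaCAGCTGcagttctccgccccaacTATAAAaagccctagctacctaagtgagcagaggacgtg
Cox6a2, chr1:192219717-192219916, minus strand: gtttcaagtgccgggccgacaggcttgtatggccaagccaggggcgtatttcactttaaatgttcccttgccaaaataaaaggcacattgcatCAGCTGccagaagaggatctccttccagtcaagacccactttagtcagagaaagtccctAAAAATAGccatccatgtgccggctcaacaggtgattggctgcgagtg
In Cox8a the ETS letters begin 57 and 19 bases before the start, and YY1 letters lie across the start. In Cox8b the TATA letters begin 39 bases before the start and the E-box letters 100 and 62 bases before it. In Cox6a2 the E-box letters begin 107 and the MEF2-like letters 48 bases before the start. Among all genes the TATA letters were found in 14.3%, the E-box letters in 15.1% and the MEF2-like letters in 1.5% of the windows. Of the 75 members other than alternative isoforms and copies that had a window, 6 held the TATA, 9 the E-box and 1 the MEF2-like letters, and no difference between isoforms and usual subunits was tested. Of the 5 alternative isoforms with a window, 1 (Ndufa4l2) held any of the NRF1, ETS and YY1 strings.

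To compare the RNA levels of the parts of the chain, levels were expressed as CPM per kb of exon. The length was that of all annotated exon bases of a gene, with a median of 707 over the members. It was 4906 for Cox7a1 and 4968 for Ndufa10, and their low places per length depend on it. The members had a median level per length of 101.8 CPM per kb, against 5.18 over all 18141 genes tested, and 40 of the 95 were among the 500 genes with the highest level per length. Complex V had a median of 249.2 CPM per kb over 17 members, the usual subunits of complex IV 284.3 over 11, complex III 114.5 over 8, complex II 99.3 over 4 and the complex I subunits 91.7 over 35. The Ndufaf assembly factors were lower, with a median of 17.2 CPM per kb over 8 genes and a range from 9.05 (Ndufaf6) to 31.9 (Ndufaf8), which partly overlaps that of the complex I subunits, from 23.4 (Ndufa10) to 253.7 (Ndufb8). The alternative isoforms of complex IV had a median of 1.36 CPM per kb and the single-block copies 0.794. The plot of levels per length shows this order.

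**Figure D1:**
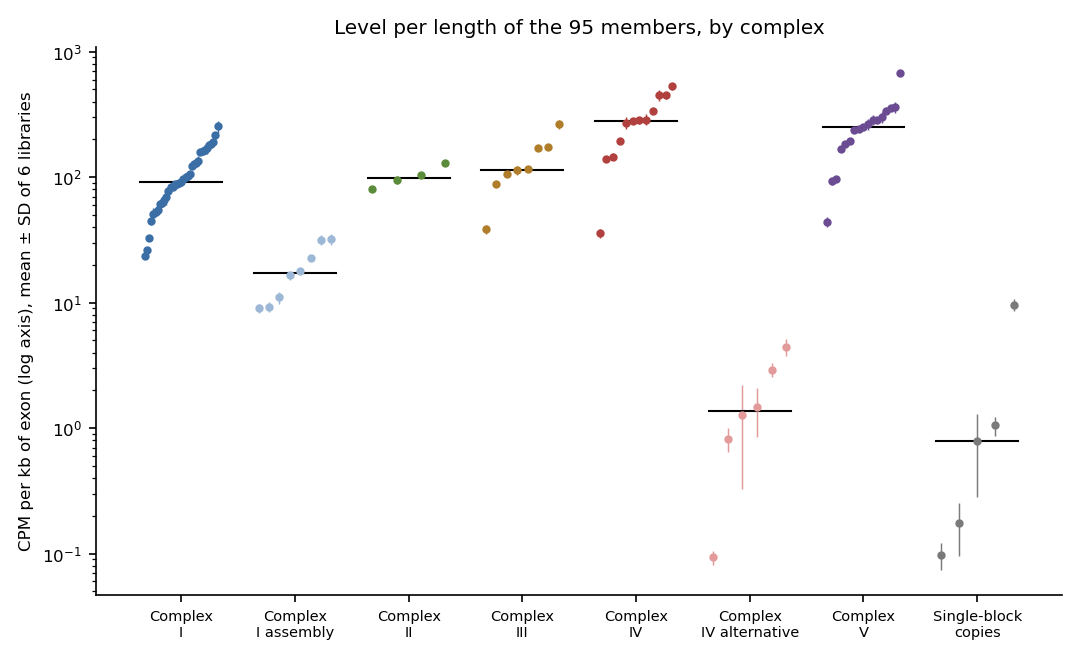
Level per length of the 95 members in CPM per kb of exon on a log axis; each point is a gene with the mean and SD of 6 libraries, and black lines are class medians. Atp5f1b is highest at 671.0 CPM per kb and Cox7a1, with 4906 annotated exon bases, lowest at 0.0935. The alternative isoforms and copies lie below every usual subunit.

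Atp5f1b, the catalytic beta subunit of the ATP synthase, was the member with the highest level per length, at 671.0 ± 19.1 CPM per kb (SD, n = 6 libraries). It was followed by Cox4i1 (528.9 ± 33.3 CPM per kb), the largest nuclear subunit of complex IV, Cox6a1 (451.3 ± 29.9), the usual form of subunit VIa, Cox6c (448.3 ± 46.6), a small subunit of the same complex, and Atp5mg (360.5 ± 34.1), an accessory subunit of the membrane part of ATP synthase. Except for Atp5f1b and Cox4i1, neighbours among these 5 overlapped in the range of their 6 libraries, as did 86 of the 94 neighbouring pairs over all members. The alpha subunit Atp5f1a, which pairs with beta in equal number in the enzyme, stood at 353.5 ± 13.6 CPM per kb. The ratio of beta to alpha per length lay between 1.86 and 1.99 in the 6 libraries. Within complex I the highest and lowest subunit differed 10.8-fold per length, within complex II 1.63-fold, and within complex V 15.2-fold. The lowest in complex I, Ndufa10, had 4968 annotated exon bases and a control mean of 114.5 CPM. The 5 lowest members were Cox7a1 (0.0935 CPM per kb), Atp5mgl4 (0.0980), Ndufb11b (0.174), Cox7a2l2 (0.794) and Cox4i2 (0.819), all of them alternative isoforms or single-block copies. Before division by length, Cox7a1 (control mean 0.430 CPM) stood above Atp5mgl4 (0.244) and Ndufb11b (0.232).

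Where a complex IV subunit or the ATP synthase c-ring has several genes, the share of each in the summed level per length was computed. Cox4i1 held 99.8% of the COX4 level, and Cox4i2, its hypoxia-linked partner, 0.154%. Cox6a1 held 99.7% of its pair, Cox6b1 97.0% against 2.96% for the testis-type Cox6b2, Cox8a 99.5%, and Ndufa4, now counted as a complex IV subunit, 99.0% against 1.02% for Ndufa4l2. Cox7b held 99.96% against Cox7b2, which had between 2 and 8 reads per library and was not a member. The 3 genes that encode the same mature c-ring protein were all read at high level: Atp5mc3 held 47.9%, Atp5mc2 33.6% and Atp5mc1 18.5%, and these shares varied by at most 3.1 percentage points between libraries. Within the COX7A group, Cox7a2l stood at 139.6 ± 6.8 CPM per kb and Cox7a2 at 35.6 ± 3.0, the lowest of the usual complex IV subunits. The files count no read that aligns to several places, so a gene with near-identical copies is undercounted by an amount that was not tested.

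The usual subunits Atp5pb, Ndufa1 and Ndufs6 were missing from the members for lack of reads. Atp5pb, the b subunit of the ATP synthase stalk, and Ndufa1, an accessory subunit of complex I, had 0 reads in all 6 libraries, and Ndufs6, another accessory subunit, had 1, 0 and 0 reads in the control and 0, 0 and 1 in the ethanol libraries. A count of 0 allows a level of up to 0.0424 to 0.0479 CPM per library (3 reads, counting error only) for reads that align to a single place. Their coordinates in Rnor_6.0 are chr2:208566385-208577147 for Atp5pb, chrX:123803109-123806760 for Ndufa1 and chr1:32573204-32581785 for Ndufs6, and none of their exons was shared with another gene on the same strand. Whether reads of these genes were lost because they also align elsewhere was not tested. Of the other 20 genes under the read limit, 16 were single-block copies, 2 were copies of several blocks, and 2 were the tissue-restricted isoforms Cox7b2 and Cox8c. A further 71 rows with matching symbols were pseudogenes or non-coding and were left out. The 13 subunits encoded in mitochondrial DNA had no row in the count files and were not analysed here.

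Acute ethanol exposure was then compared with saline. None of the 95 members passed an adjusted p of 0.2, the threshold of the study, in edgeR's quasi-likelihood F test, with p-values adjusted by the Benjamini-Hochberg method over all 18141 genes tested, and neither did any other gene (0%, smallest adjusted p 0.818). The paper called genes at this threshold in its own analysis of the RNA-seq data. The count of 0 genes belongs to the test used here. The count among members was also 0 with edgeR's likelihood ratio test, DESeq2 and limma-voom, of which the first 2 called 77 and 75 genes elsewhere. At an unadjusted p below 0.05, edgeR's quasi-likelihood test gave 1 member that was higher (Cox6a2; 1.05% of members, against 1.57% of all genes tested) and 1 that was lower (Cox8b; 1.05%, against 2.58%). These shares were no larger than the background of all genes.

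The members' fitted changes were small. The median log2 fold change of ethanol over control was -0.0028 over the members and 0.0064 over all genes tested, and 46 of 95 members (48.4%) were above 0, against 52.6% of all genes. For 87 members (91.6%) the fitted change was within 0.1 of 0 on the log2 scale, against 61.7% of all genes, most of which were read at a lower level. The median standard error was 0.079 for members and 0.111 for all genes. The 95% interval of the fold change, not adjusted for the number of members, stayed between a 1.25-fold decrease and a 1.25-fold increase for 82 of 95 members, and within 1.5-fold for 86. The 13 with wider intervals were the 6 alternative isoforms, 4 of the 5 single-block copies, Ndufaf2, Ndufb1 and Ndufa2.

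**Figure D2:**
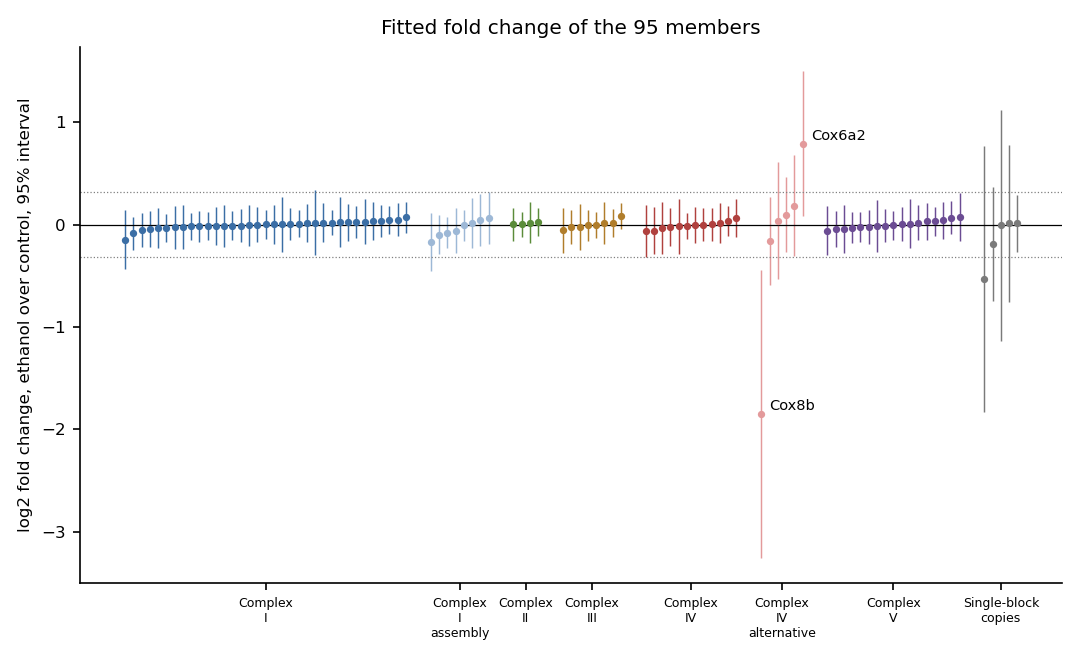
Fitted log2 fold change of ethanol over control for each of the 95 members, with its 95% interval, sorted within classes; dotted lines mark a 1.25-fold change in either direction. Of the 95 intervals 82 lie between the dotted lines, and Cox8b (-1.85) and Cox6a2 (0.79) are the members whose interval leaves 0 out.

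By complex, the median log2 fold change was 0.0005 for the 35 complex I subunits (18 above 0), 0.0096 for complex II (4 of 4 above 0), -0.0072 for complex III (3 of 8), -0.016 for the 11 usual complex IV subunits (4 of 11) and -0.0092 for complex V (8 of 17). The widest changes among complex I subunits were -0.15 for Ndufb1 and 0.07 for Ndufv3. The 8 assembly factors had a median of -0.034 with 3 above 0. In complex II, the flavoprotein Sdha, which oxidizes succinate, had 294.0, 298.8 and 290.8 CPM in control and 303.2, 300.7 and 297.5 CPM in ethanol libraries. These groups overlapped by a narrow margin, and Sdha had the smallest variation of any member, with a coefficient of variation of 1.53% over the 6 libraries.

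A list of 12 genes held catalytic and other nuclear subunits and the inhibitor Atp5if1. These 12 are called core genes here, although not all are catalytic. Their fitted log2 fold changes lay between -0.06 and 0.04 with a median of 0.0081, and 8 were above 0. In complex I, Ndufs1, the largest iron-sulfur subunit, had 219.5, 216.6 and 208.8 CPM in control and 219.9, 232.2 and 204.1 CPM in ethanol libraries. The values of Ndufs1 spanned a wider range in ethanol and enclosed those of control. Ndufv1, which binds NADH, had a log2 fold change of 0.04 (SE 0.07). Uqcrfs1, the Rieske iron-sulfur protein of complex III, had -0.0049 (SE 0.06), Uqcrc1 0.01 (SE 0.06) and Sdhb, the iron-sulfur subunit of complex II, 0.003 (SE 0.05). In complex IV, Cox5a, a matrix-side subunit, had -0.02 (SE 0.06) and Cox6c -0.06 (SE 0.11). Atp5f1b had 1174, 1173 and 1154 CPM in control and 1153, 1245 and 1183 CPM in ethanol libraries, which overlapped. Atp5f1a had 0.02 (SE 0.08), and Atp5if1, the inhibitor of ATP hydrolysis by the synthase, -0.0092 (SE 0.06).

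Cox8b lies at chr1:213648787-213650247 on the minus strand of Rnor_6.0, with 2 exon blocks. It had 35, 38 and 53 reads in control and 7, 2 and 26 reads in ethanol libraries. These were 0.535, 0.535 and 0.836 CPM in control and 0.109, 0.0311 and 0.373 CPM in ethanol. Every ethanol library lay below every control library, which held for 5.19% of all genes tested, and ethanol 3 was closest to the controls. The log2 fold change was -1.85 (SE 0.61) with an unadjusted p of 0.0166 and an adjusted p of 1.00 in edgeR's quasi-likelihood test. The 2-sided exact permutation test gave 0.1, the smallest p that 3 against 3 libraries allow. Without ethanol 3 the log2 fold change was -3.14 with an adjusted p of 0.143 (edgeR), past the threshold, among 83 genes called in that comparison. Without control 3 or without ethanol 1 its unadjusted p was 0.0543 or 0.0560 (edgeR). The share of Cox8b in the summed level of Cox8a and Cox8b per length was 0.717% in control and 0.183% in ethanol libraries.

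Markers of the choroid plexus, an epithelium of the ventricles that can be cut along with the amygdala, moved with Cox8b. The 10 listed markers summed to 527.6, 1137 and 901.9 CPM in control and 13.2, 14.2 and 487.3 CPM in ethanol libraries. All 9 of them that were tested were lower after ethanol, with log2 fold changes from -2.39 to -1.35, and 5 had an unadjusted p below 0.05 (edgeR), against 2.58% of all genes tested. None of the 10 was at 0 in every library. Markers of ependyma and motile cilia, which line the ventricles, also moved with Cox8b: all 8 were lower, with log2 fold changes from -0.95 to -0.26, and 5 had an unadjusted p below 0.05 (edgeR). They summed to 89.7, 114.1 and 112.1 CPM in control and 66.6, 70.3 and 84.8 CPM in ethanol libraries, so that every ethanol library lay below every control, and none was at 0 in every library. The 2 libraries with the lowest Cox8b, ethanol 1 and ethanol 2, were those with the lowest sums of both lists, while among the controls Cox8b was highest in control 3 and both sums in control 2. Both marker lists were chosen with earlier results of these data known, and the paper reported the choroid plexus marker Kcnj13 as decreased. Their counts are therefore no independent support. The part of choroid plexus or ependymal RNA in the Cox8b result was not tested.

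Cox6a2 lies at chr1:199624037-199626255 on the minus strand of Rnor_6.0. It had 39, 35 and 38 reads in control and 37, 66 and 91 reads in ethanol libraries, or 0.597, 0.493 and 0.599 CPM against 0.577, 1.03 and 1.31 CPM. Ethanol 2 and 3 lay above all controls, while ethanol 1 lay among them. The log2 fold change was 0.79 (SE 0.30) with an unadjusted p of 0.0331 and an adjusted p of 1.00 (edgeR), and the exact permutation p was 0.3. The unadjusted p rose to 0.0582 with limma-voom, and without ethanol 3 the log2 fold change was 0.51. Leaving out ethanol 1 gave an unadjusted p of 0.00253, and leaving out any other library a p between 0.0592 and 0.124 (edgeR). Cox6a1 had 249.2, 241.2 and 237.5 CPM in control and 233.5, 246.1 and 279.2 CPM in ethanol libraries, with a log2 fold change of 0.06 (SE 0.08). The usual forms of both subunits therefore overlapped between the groups. Cox8a had 136.5, 137.1 and 136.3 CPM in control and 132.4, 138.4 and 148.8 CPM in ethanol libraries.

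**Figure D3:**
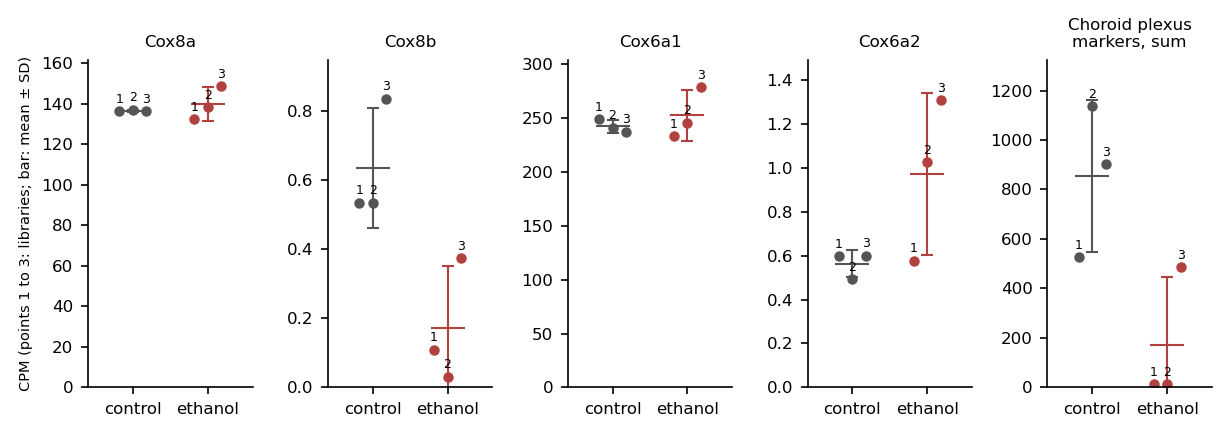
CPM of Cox8a, Cox8b, Cox6a1 and Cox6a2 and the summed CPM of 10 choroid plexus markers in each library (points numbered by library) with the mean and SD of each group; each axis starts at 0 and has its own scale. Cox8b and the marker sum are lowest in ethanol 1 and 2, and Cox8a and Cox6a1 overlap between the groups.

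The other alternative isoforms overlapped between the groups. Cox4i2 had a log2 fold change of 0.04 (SE 0.25), Cox6b2 of -0.16 (SE 0.19), Cox7a1 of 0.18 (SE 0.21) and Ndufa4l2, an isoform induced in hypoxia, of 0.10 (SE 0.16). Cox7a1, the muscle form of subunit VIIa, had between 25 and 39 reads in each library. Of the c-ring genes, Atp5mc1 had 0.04 (SE 0.08), Atp5mc2 0.03 (SE 0.06) and Atp5mc3 -0.02 (SE 0.07).

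After Cox8b and Cox6a2, the members with the smallest unadjusted p-values were Uqcr11, Ndufaf2, Ndufc1, Ndufaf4, Ndufaf7, Ndufb1, Ndufv3 and Atp5f1d, all with an adjusted p of 1.00 (edgeR). Uqcr11, a small accessory subunit of complex III, had 136.6, 137.9 and 136.0 CPM in control and 139.4, 147.8 and 147.1 CPM in ethanol libraries. It was the only member whose ethanol libraries all lay above the controls, a pattern found in 3.65% of all genes tested. Its log2 fold change was 0.08 (SE 0.05, unadjusted edgeR p 0.172) and its exact permutation p 0.1. The assembly factors Ndufaf2, Ndufaf4 and Ndufaf7 had log2 fold changes of -0.17 (SE 0.12), -0.10 (SE 0.08) and -0.08 (SE 0.07). The accessory subunits Ndufc1 and Ndufb1 had -0.08 (SE 0.07) and -0.15 (SE 0.12), and Ndufv3, an accessory subunit of the NADH-binding arm, had 0.07 (SE 0.06). Atp5f1d, the delta subunit of the central stalk of the ATP synthase, had 0.07 (SE 0.07). In these 7 the groups overlapped.

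Libraries of the same group differed, and most members moved together between them. The median log2 difference of the members from their control mean was 0.060, -0.080 and 0.012 in control 1 to 3 and -0.090, -0.006 and 0.077 in ethanol 1 to 3. Control 1 or ethanol 3 held the highest value of 76 of the 95 members, and control 2 or ethanol 1 the lowest value of 71. The shift appeared in the median of every complex. Ethanol 3 stood at 0.057 for the complex I members, 0.035 for complex II, 0.057 for complex III, 0.121 for complex IV and 0.077 for complex V. Ethanol 1 stood at -0.090, -0.036, -0.074, -0.077 and -0.103. Within complex I, ethanol 3 stood at 0.0997 for the 28 accessory subunits, -0.003 for the 7 core subunits and -0.019 for the 8 assembly factors. In ethanol 1 these classes stood at -0.098, -0.063 and -0.086. The list of 12 genes called core genes above, not all of them catalytic, moved less, from -0.026 in ethanol 1 to 0.039 in ethanol 2. In complex V the F1 subunits stood at -0.021, 0.093 and 0.019 in ethanol 1 to 3, and the short accessory subunits of the membrane part at -0.138, -0.070 and 0.175. Summed over members, the level was 11160, 10383 and 10884 CPM in control and 10354, 10875 and 11257 CPM in ethanol libraries, and the groups overlapped.

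**Figure D4:**
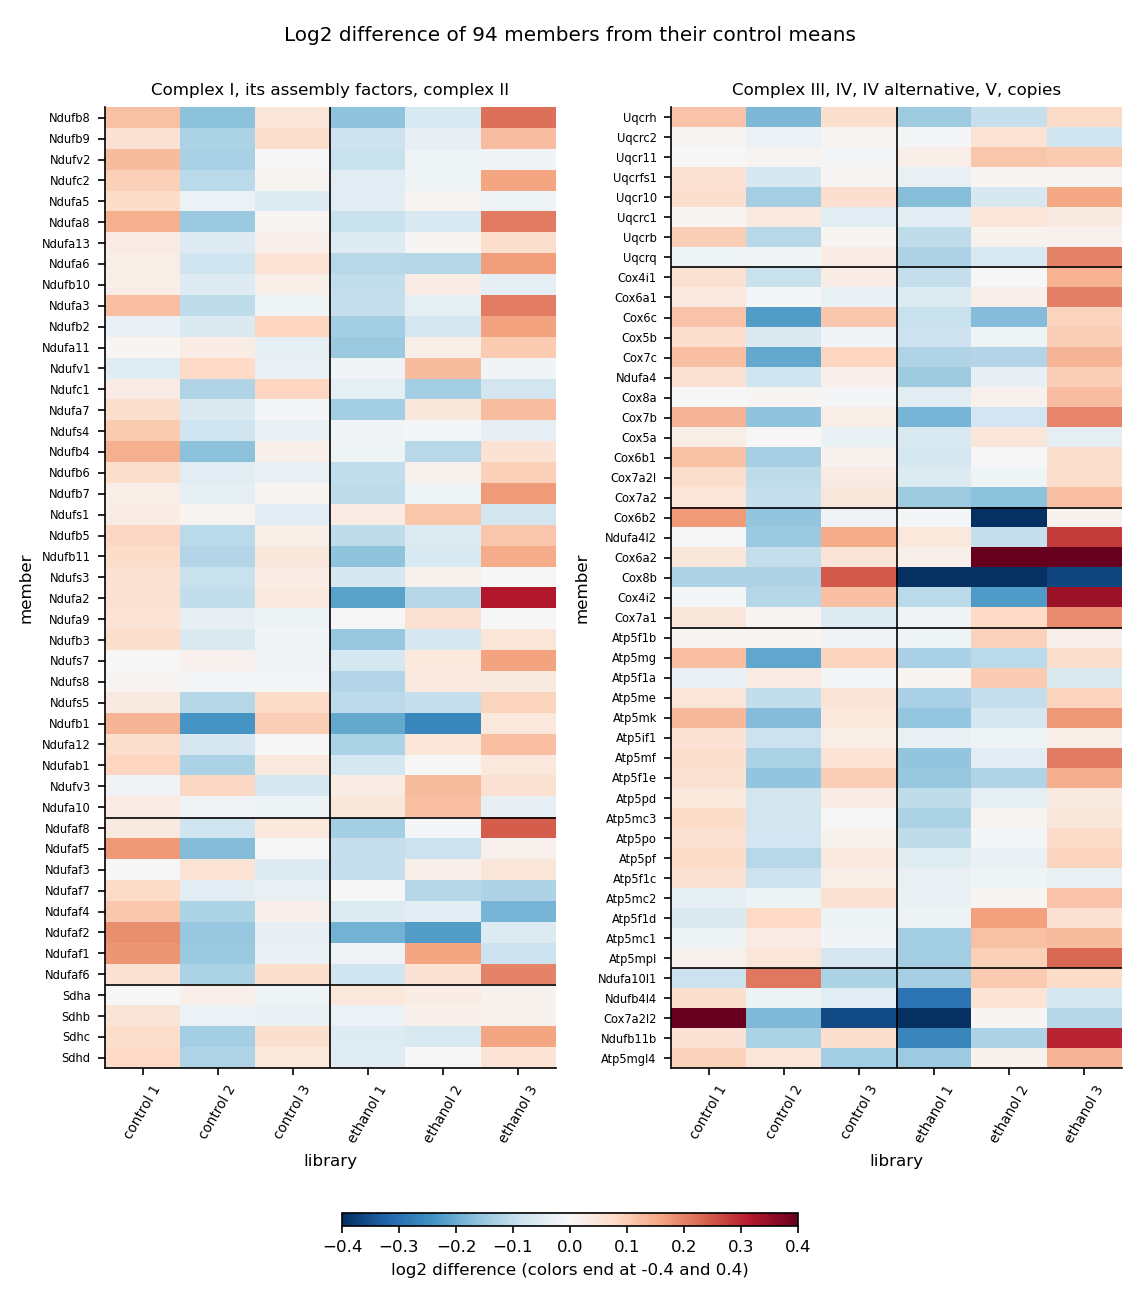
Log2 difference of 94 of the 95 members (rows, ordered by level within classes separated by black lines) from the gene's own control mean in each of the 6 libraries (columns), with colors ending at -0.4 and 0.4. Control 1 and ethanol 3 are mostly red and control 2 and ethanol 1 mostly blue, which hold the highest value of 76 and the lowest value of 71 of all 95 members.

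Because of this, the number of members above 0 depended on single libraries. It was 46 with all libraries, 28 without control 2, 71 without ethanol 1 and 15 without ethanol 3, and 21 when the libraries were scaled by their totals alone, which moved the median of all genes to -0.020. Some other gene lists moved between libraries in the same way, and others did not. The 60 members with up to 1000 exon bases stood at -0.095 in control 2, -0.103 in ethanol 1 and 0.104 in ethanol 3, and the 35 longer ones at -0.045, -0.049 and 0.035. All 1502 tested genes of that short length stood at -0.045, -0.069 and 0.073, and 86 cytosolic ribosomal protein genes, also short, at -0.175, -0.106 and 0.190. In the same libraries, 34 other respiratory chain assembly factors stood at -0.054, -0.022 and 0.047. By contrast, 16 citric acid cycle genes stood at 0.006, 0.017 and -0.046, and 14 carriers and porins at -0.015, 0.009 and -0.037. The 6108 tested genes with over 4000 exon bases stood at 0.015, 0.018 and -0.029. The summed level of 6 oligodendrocyte markers was 8379, 3549 and 5861 CPM in control and 4355, 6022 and 9727 CPM in ethanol libraries, and the mitochondrial RNA rows, almost wholly 2 rows of 958 and 1571 bases, took 1.03%, 0.783% and 1.02% of the reads in control and 0.913%, 0.865% and 1.25% in ethanol. The part of transcript length, of oligodendrocyte RNA and of mitochondrial content in the members' shift between libraries was not tested.

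**Figure D5:**
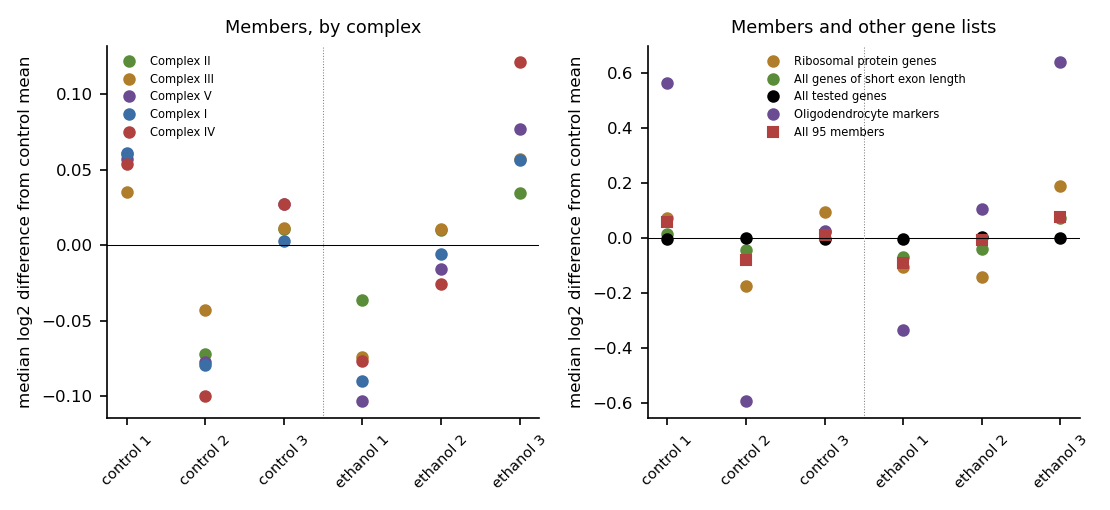
Median log2 difference from the control mean in each library, for the members of each complex (left; complex I with assembly factors, complex IV with alternative isoforms) and for all 95 members beside ribosomal protein genes, all tested genes with up to 1000 exon bases, all tested genes and 6 oligodendrocyte markers (right). Every complex is at its highest in ethanol 3 or control 1, with 0.121 for complex IV in ethanol 3, and all tested genes together stay near 0.

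Other genes of the same metabolic routes were counted from lists, beside 1.57% higher and 2.58% lower at an unadjusted p below 0.05 and 52.6% above 0 among all genes tested. Of 34 tested assembly factors of the respiratory chain other than Ndufaf genes, none had an unadjusted edgeR p below 0.05, 21 were above 0, and the median log2 fold change was 0.02. Foxred1, which serves complex I assembly, had -0.13 (SE 0.06), and Atpaf1, a chaperone of the F1 part, 0.10 (SE 0.06). None of 16 citric acid cycle genes had an unadjusted p below 0.05, 13 were above 0 and the median was 0.02. For 14 carriers and porins these were 0, 9 and 0.03, with Ucp2, an uncoupling protein, at 0.20 (SE 0.10). Of 18 regulators of mitochondrial gene expression none passed, 8 were above 0, and the median was -0.0092. Among 18 genes of a glycolysis list that also held a glucose transporter, 1 was higher at an unadjusted p below 0.05 (edgeR). In this list 16 were above 0, and the median was 0.06. The median log2 difference of this list from the control mean was 0.073, 0.187 and -0.068 in ethanol 1 to 3. That of 5 glutamatergic neuron markers was 0.309, 0.648 and -0.231, and the part of neuronal RNA in the glycolysis values was not tested. The gene with the unadjusted p below 0.05 was Slc2a1, the glucose transporter of the blood-brain barrier, with 0.32 (SE 0.09, unadjusted edgeR p 0.00677), and Hk2, a hexokinase, had -0.37 (SE 0.17). No gene of these lists passed an adjusted p of 0.2.

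The 5 single-block copies were read far below their parents and are uncertain, since reads shared by copy and parent were not counted. Cox7a2l2 had 51, 20 and 12 reads in control and 10, 25 and 22 in ethanol libraries, a range wide enough to cover its log2 fold change of -0.53 (SE 0.56). Ndufb11b had 7 to 28 reads and Atp5mgl4 11 to 22 reads per library, and their parents Ndufb11 and Atp5mg stood 477-fold and 3680-fold higher per length. Ndufa10l1 was the exception, with 790 to 1127 reads per library and a level per length 2.44-fold under that of Ndufa10. This gap depends on exon length, which was 1434 bases for Ndufa10l1 and 4968 for Ndufa10. Their control means were 13.7 and 114.5 CPM. Of the members, 1 (Ndufs7) had 4.73% of its exon length in common with a gene of the same strand, and 11 were overlapped on the opposite strand, which the strand-specific counting keeps apart.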

How the data were processed

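RNA-seq counts from 3 control and 3 ethanol libraries were used. Per the file headers, the authors assigned reads to exons of Rnor_6.0 genes with featureCounts 1.6.3 in the reverse-stranded setting after alignment with STAR 2.7.0f, and deposited raw counts per gene. Reads aligning to several places or genes were not counted. Totals lay between 62576504 and 70755739 reads per library. Symbols for 29322 gene identifiers came from a RefSeq gene table of build GRCr8, and 9123 identifiers stayed without a symbol. Promoter sequences came from RefSeq, and the first window listed for a gene was used.

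Counts were analyzed with R 4.3.3 and edgeR 4.0.16 (filterByExpr, TMM factors between 0.976 and 1.01, quasi-likelihood F test, threshold of 0.2 on the adjusted p). The standard error was the absolute log2 fold change divided by the square root of F. Log2 differences of a library from the control mean were taken after adding 0.5 to each CPM value, which shrinks them for genes with few reads. The correlations between libraries used log2 CPM with a prior count of 2. Alternatives used limma 3.58.1, DESeq2 1.42.0, other scalings and filters, the replicate number as a block, each library left out, and the members without Ndufaf genes. Genes named with values were the 10 members with the smallest p, the 5 highest and 5 lowest per length, the isoform groups, the 12 core genes, members behind counts of 5 or fewer, the ends of a class's range, which were named after their values were seen, and up to 3 genes per other list. The members and lists were chosen with earlier results of these data known. Replicates are pools of rats, and the labels name no batch. Of the 95 members, 1 is not reported here by name.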

Additional observations from a re-analysis of the deposited data

How the results depend on the processing

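The median log2 fold change of the members, -0.0028 with all libraries, ranged from -0.050 to 0.034 when single libraries were left out, so that its sign depended on the library. The number of members with an adjusted p below 0.2 ranged from 0 to 1 with a library left out (Cox8b without ethanol replicate 3), the number at an unadjusted p below 0.05 from 0 to 2, and the number above 0 from 15 to 71. The number at an unadjusted p below 0.05 was 1 with limma-voom, which left out Cox6a2. Without control replicate 3 it was 0, and without control replicate 2 it was 2 (Cox8b and Ndufb1). The number above 0 was 21 with library totals alone. Without the Ndufaf genes the counts were 0, 2 and 43. Of 140 alternative values of the 10 members with the smallest p, 1 (Cox8b) had an adjusted p below 0.2. In edgeR's quasi-likelihood test with all libraries, no gene passed this threshold. All 140 kept their direction, but the 10 members were picked by p in these same libraries, so this is no independent support. Sizes moved when a library was left out, such as 0.018 to 0.111 for Atp5f1d and -0.25 to -0.07 for Ndufaf2. Over all genes, 4 were called without ethanol replicate 1, and the likelihood ratio test and DESeq2 called 77 and 75.

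Replicate numbers are shared by both groups but name different rats. Deviations from the group means of same-numbered libraries correlated by 0.026, 0.388 and 0.211 over 14241 genes. Control 2 and control 3 correlated best with the ethanol library of their own number. Control 1 correlated best with ethanol 3 (0.305), so the numbers were not taken as pairs. With the replicate block the members had 0 adjusted p below 0.2, 2 unadjusted p below 0.05 and 43 above 0. With 3 libraries per group, the 95% intervals of 82 of 95 members stayed within a 1.25-fold change in either direction. Changes small enough to lie inside a member's interval could not be told from no change.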

Other observations

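Outside the 95 members, the several-block copy Atp5mc2l2, singled out after its values were seen, had 79, 1 and 1 reads in control and 0, 0 and 89 reads in ethanol libraries, so that control 1 and ethanol 3 held nearly all of its reads. Among the pseudogenes with matching symbols, Uqcr10-ps1 had the most reads, from 768 to 1020 per library, and 35 of 71 had no read in any library. Ethanol 3 held the highest median log2 difference from the control mean for the members, the ribosomal protein genes and the oligodendrocyte markers, and the lowest median was in ethanol 1 for the members and in control 2 for the other lists.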
